A study of Homo sapiens with 4 samples.

Results

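Interleukins and their receptors were examined in human myelodysplastic cell lines after decitabine (DAC). Members were all genes whose annotated symbol starts with IL followed by a digit, with IL8 left out. They made up 85 of 18132 genes and 203 of 44994 probe sets that carry a single gene symbol, and they comprised 39 ligands, 41 receptor subunits, 3 secreted inhibitors, 1 enzyme (IL4I1) and 1 noncoding RNA (IL6-AS1). RNA was measured on 4 gene expression arrays, one for each of MDS-L cells with DAC, MDS-L cells with the solvent DMSO, SKM-1 cells with DAC and SKM-1 cells with DMSO. DAC was given at 1 μM in 5 pulses of 24 h each, and the DMSO cultures were the controls. The medium of both MDS-L cultures, DAC and DMSO alike, held IL-3 at 100 U/ml, on which this line depends, and none is listed for SKM-1 cells. MDS-L is a factor-dependent line established from a patient with myelodysplastic syndrome, and SKM-1 is a myeloid line derived from leukemia that followed such a syndrome, so each stands for a single patient. With 1 array per condition there was no replicate check within a cell line and no p-value is given there, and the few arrays limit how precisely any value is known.

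Interleukins are small secreted proteins through which blood and immune cells act on each other and on themselves. They bind surface receptors built from a specific chain and, often, a chain shared by several receptors. Such chains are IL1RAP for IL-1 and IL-33, the common gamma chain IL2RG for IL-2, IL-7, IL-15 and IL-21, and IL6ST (gp130) for the IL-6 family. IL-1 family receptors signal through MYD88 and NF-kB, and most others through JAK kinases and STAT factors. In the bone marrow, IL-1, IL-3 and IL-6 act on hematopoietic progenitors, and DAC is a nucleoside analog that is built into DNA and lowers its methylation.

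Signals are given as log2 values. Background was set on each array at the 90th percentile of 359 olfactory receptor probe sets, genes that blood cells are taken not to use, and lay at 5.09 in MDS-L with DAC, 4.84 in MDS-L with DMSO, 5.07 in SKM-1 with DAC and 4.88 in SKM-1 with DMSO. A gene was counted as measured in a cell line when its probe set with the highest mean was above background on at least 1 of that line's 2 arrays. Values under background were raised to it before a fold was taken. Where that happened on 1 of a line's 2 arrays the difference is written as "at least", and no fold is given for members whose raised values set no bound. Of 6 myeloid progenitor markers, 6 were above background on both MDS-L arrays and 5 on both SKM-1 arrays. KIT, the stem cell factor receptor, read 8.84 in MDS-L with DAC and 9.15 in MDS-L with DMSO, but was under background in SKM-1 (3.59 with DAC and 3.25 with DMSO).

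Many members were under background in these lines. Of the 85 genes, 44 were above background in MDS-L with DAC, 40 in MDS-L with DMSO, 39 in SKM-1 with DAC and 35 in SKM-1 with DMSO, and 33 were under background on all 4 arrays at the probe set used. Those 33 included IL3, IL5, IL2, IL4, IL33, IL17A and the noncoding IL6-AS1. Thus 46 members were measured in MDS-L, 42 in SKM-1 and 36 in both. Of all 18132 genes, 12688 were measured in MDS-L, 12714 in SKM-1 and 11984 in both.

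In MDS-L cells, some ligand, receptor and inhibitor genes had a higher signal with DAC than with DMSO. 8 of the 46 measured members (17.4%) were at least 2-fold higher, against 3.62% of all measured genes: IL6, IL1RN, IL18RAP, IL32, IL1A, IL21R, IL24 and IL10RA. IL1RL1 alone was at least 2-fold lower, 1 of 46 against 3.18% of all measured genes. In SKM-1 cells, 0 of 42 were at least 2-fold higher, against 2.71% of all measured genes, and 0 of 42 were at least 2-fold lower, against 1.43%. These are counts over 1 pair of arrays in each line, with no test. The MDS-L count of 8 depends on background and probe set: with background at the 99th percentile 3 were higher (IL6, IL1RN and IL32, of 25 measured, against 2.67% of all genes), and with the median over probe sets 5 were higher (of 37 measured, against 2.65%).

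**Figure D1:**
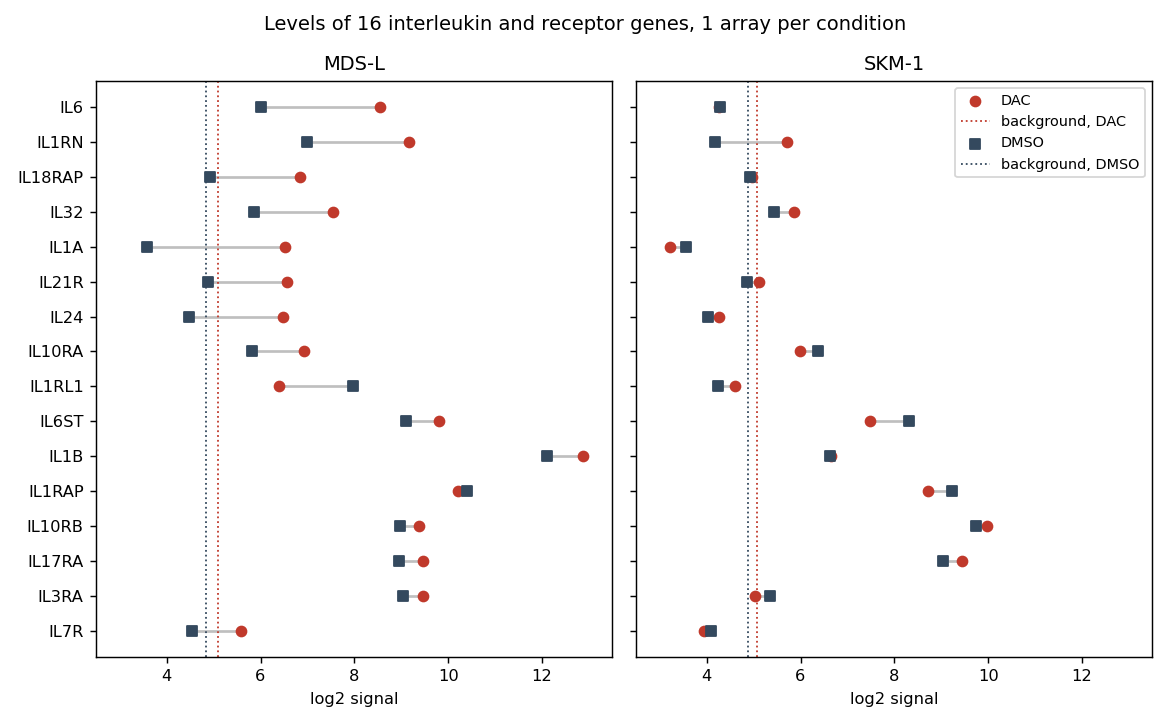
Levels (log2 signal) of the 16 members named for their size of difference, mean signal or role, in MDS-L (left) and SKM-1 (right). Circles are DAC arrays, squares DMSO arrays, and dotted lines each array's background; IL6 stood at 8.54 against 6.01 in MDS-L and under both background lines in SKM-1.

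IL6 encodes a cytokine that drives inflammation, B cell growth and myeloid differentiation. Its signal was 8.54 in MDS-L with DAC and 6.01 in MDS-L with DMSO, against 4.27 in SKM-1 with DAC and 4.28 in SKM-1 with DMSO. Only the MDS-L arrays were above background, and there IL6 was 5.79-fold higher with DAC. A second IL6 probe set was under background on all 4 arrays, so the value rests on 1 probe set.

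Within the IL-1 family, the agonist IL1A and the antagonist IL1RN were both higher in DAC-treated MDS-L cells. IL1A, which encodes IL-1 alpha, read 6.53 with DAC and 3.57 with DMSO in MDS-L, and it was under background in SKM-1 (3.21 with DAC and 3.56 with DMSO). The MDS-L difference was at least 3.22-fold, because the DMSO value was under background. IL1RN, which encodes the receptor antagonist that blocks IL-1 alpha and beta, read 9.16 with DAC and 6.99 with DMSO in MDS-L, a 4.52-fold difference. In SKM-1 it read 5.71 with DAC and 4.18 with DMSO, the second value being under background, which gave a difference of at least 1.78-fold. A further IL1RN probe set showed smaller differences, 0.89 in MDS-L and 0.53 in SKM-1 on the log2 scale. IL1B, the main secreted IL-1 of myeloid cells, read 12.87 with DAC and 12.10 with DMSO in MDS-L, a 1.71-fold difference, while in SKM-1 it read 6.65 with DAC and 6.64 with DMSO. The SKM-1 values of IL1B were thus close to each other and far under those of MDS-L.

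On the receptor side of this family, 2 members with related roles went opposite ways in MDS-L. IL18RAP, the accessory chain of the IL-18 receptor, read 6.84 with DAC and 4.93 with DMSO in MDS-L, 3.75-fold higher, and 4.96 with DAC and 4.92 with DMSO in SKM-1, both near background. A second IL18RAP probe set was under background on all 4 arrays, and with the median over probe sets the MDS-L difference was 0.32 on the log2 scale. IL1RL1, which encodes ST2, the receptor for IL-33, read 6.40 with DAC and 7.97 with DMSO in MDS-L, 2.96-fold lower, and was under background in SKM-1 (4.60 with DAC and 4.23 with DMSO). Without probe sets that can match several transcripts its MDS-L difference was -0.43. All 4 distinct IL1RL1 probe sets were lower with DAC in MDS-L, with log2 differences of -1.90 to -0.43. IL18R1, the ligand-binding chain of the IL-18 receptor, read 8.19 with DAC and 8.24 with DMSO in MDS-L. IL1RAP, the chain shared by IL-1 and IL-33 receptors, read 10.20 with DAC and 10.40 with DMSO in MDS-L, and 8.71 with DAC and 9.23 with DMSO in SKM-1, 1.15-fold and 1.43-fold lower.

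IL1RAP lies on chromosome 3, whereas the other IL-1 family genes just named sit in clusters on chromosome 2. In the RefSeq gene order of GRCh38.p14, IL1R2, IL1R1, IL1RL2, IL1RL1, IL18R1 and IL18RAP are consecutive interleukin receptor genes on chromosome 2, and IL1A, IL1B, IL37, IL36G, IL36A, IL36B, IL36RN, IL1F10 and IL1RN lie in that order elsewhere on the same chromosome. In the ligand cluster, IL1A, IL1B and IL1RN, at its ends, were above background in MDS-L with DAC, and the 6 genes between IL1B and IL1RN were under background there. In the receptor cluster, IL1RL1 was lower and IL18RAP higher with DAC in MDS-L, with IL18R1 between them at a difference of -0.05. IL1R2, the decoy receptor for IL-1, read 5.25 with DAC and 3.22 with DMSO in MDS-L, at least 1.33-fold higher, and 3.24 with DAC and 3.23 with DMSO in SKM-1. For IL1R1, the signaling receptor, the probe set used was under background on all 4 arrays, whereas another probe set read 5.47 with DAC and 3.48 with DMSO in MDS-L, at least 1.54-fold higher.

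**Figure D2:**
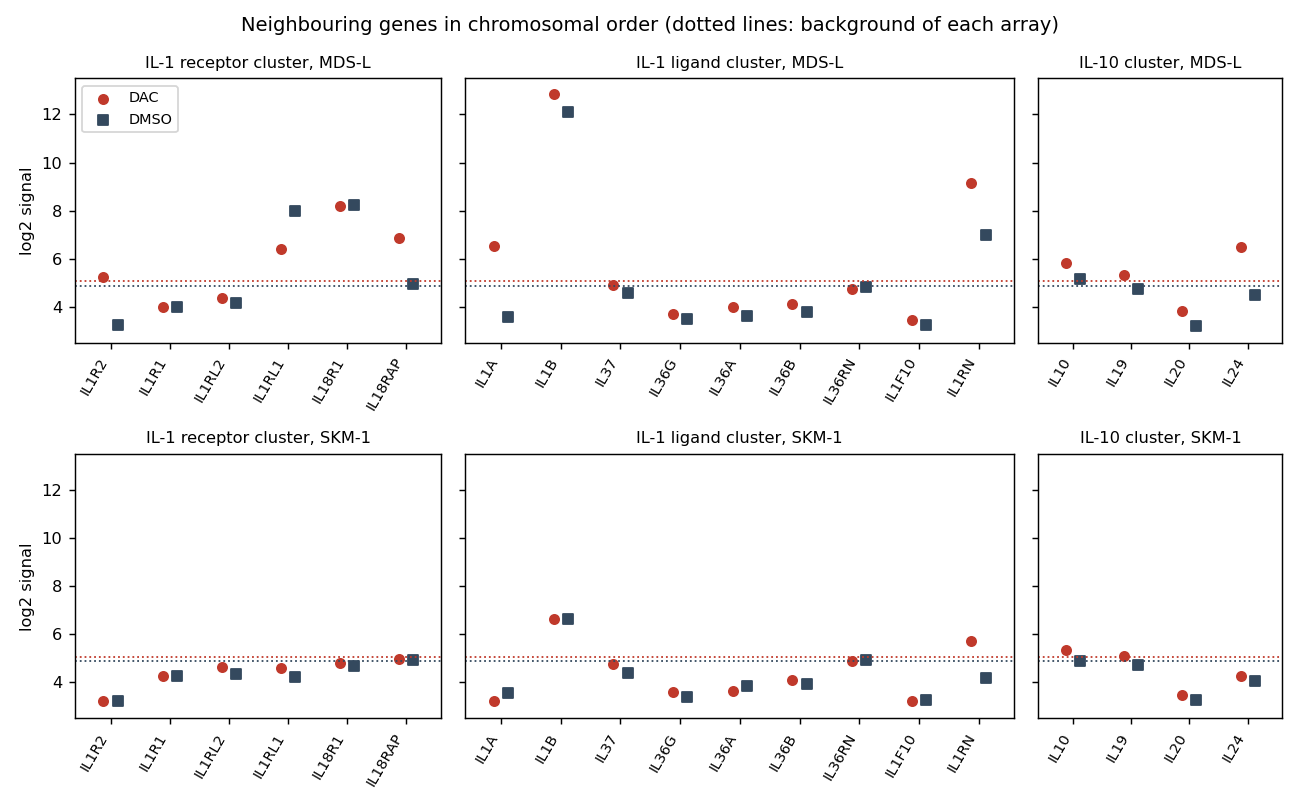
Log2 signal of neighbouring interleukin genes in chromosomal order, in MDS-L (top) and SKM-1 (bottom). Circles are DAC and squares DMSO arrays, with dotted lines at background; in MDS-L the IL-1 ligand genes above background with DAC were IL1A, IL1B and IL1RN, and IL24 was apart from IL20 in the IL-10 cluster.

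The IL-10 family held 2 of the 8 members. IL24, a cytokine known for its effect on tumor cell growth, read 6.48 with DAC and 4.47 with DMSO in MDS-L, at least 3.12-fold higher, and was under background in SKM-1 (4.27 with DAC and 4.04 with DMSO). All 3 IL24 probe sets differed by 1.80 to 2.08 in MDS-L as deposited, although only 1 of them was above background. Its neighbours on chromosome 1 are IL10, IL19 and IL20. IL10, an anti-inflammatory cytokine, read 5.83 with DAC and 5.13 with DMSO in MDS-L and 5.36 with DAC and 4.90 with DMSO in SKM-1, 1.62-fold and 1.37-fold higher. IL20 was under background on all 4 arrays.

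IL10RA, the specific chain of the IL-10 receptor, read 6.93 with DAC and 5.83 with DMSO in MDS-L, 2.15-fold higher. In SKM-1 it read 5.99 with DAC and 6.38 with DMSO, 1.31-fold lower. A second IL10RA probe set was under background on both MDS-L arrays, and in SKM-1 it read 5.10 with DAC and 4.88 with DMSO, the opposite direction. With the median over probe sets the log2 difference of IL10RA in MDS-L became 0.51, and that in SKM-1 became -0.08. IL10RB, the chain that IL-10 shares with IL-22 and the lambda interferons, read 9.38 with DAC and 8.98 with DMSO in MDS-L and 9.97 with DAC and 9.74 with DMSO in SKM-1, so its differences were 1.33-fold and 1.18-fold.

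IL32, which encodes a proinflammatory cytokine of lymphocytes and myeloid cells, had the same direction at each of its probe sets. It read 7.55 with DAC and 5.86 with DMSO in MDS-L, 3.23-fold higher, and 5.87 with DAC and 5.43 with DMSO in SKM-1, 1.35-fold higher. Of its 4 probe sets, 3 were above background on all arrays and the fourth only with DAC. With values raised to background they were higher by 1.68 to 1.98 in MDS-L and by 0.31 to 0.49 in SKM-1 on the log2 scale. Each IL32 probe set thus passed 2-fold in MDS-L and none did in SKM-1.

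In the common gamma chain family, a receptor and the shared chain differed in direction in MDS-L. IL21R, the receptor for the T cell cytokine IL-21, read 6.55 with DAC and 4.88 with DMSO in MDS-L, 3.19-fold higher, and 5.12 with DAC and 4.85 with DMSO in SKM-1, at least 1.17-fold higher. The MDS-L value with DMSO lay just over the background of 4.84. A second IL21R probe set read 5.38 with DAC and 4.49 with DMSO in MDS-L, at least 1.45-fold higher. With the median over probe sets the log2 difference of IL21R in MDS-L was 1.13. IL2RG, the shared chain, read 10.06 with DAC and 10.56 with DMSO in MDS-L, 1.42-fold lower, and 5.83 with DAC and 5.75 with DMSO in SKM-1. All 6 IL2RG probe sets were lower with DAC in MDS-L, with log2 differences of -1.16 to -0.51, so its main probe set showed the smallest difference. IL7R, the chain that binds IL-7, a lymphoid growth factor, read 5.59 with DAC and 4.54 with DMSO in MDS-L, at least 1.68-fold higher, and was under background in SKM-1 (3.94 with DAC and 4.08 with DMSO).

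IL3RA, the binding chain of the receptor for IL-3, the growth factor in the MDS-L medium, read 9.45 with DAC and 9.04 with DMSO in MDS-L, 1.33-fold higher. In SKM-1 it read 5.04 with DAC, just under background, and 5.34 with DMSO, at least 1.21-fold lower. CSF2RB, the signaling chain with which IL3RA pairs, read 13.72 with DAC and 13.62 with DMSO in MDS-L and 9.45 with DAC and 9.55 with DMSO in SKM-1. Both chains were thus above background in MDS-L under either treatment. IL3 itself was under background on all 4 arrays.

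Both chains of the IL-6 receptor had differences of opposite sign in the 2 lines. IL6ST, the signaling chain gp130, read 9.79 with DAC and 9.10 with DMSO in MDS-L, 1.61-fold higher, and 7.47 with DAC and 8.31 with DMSO in SKM-1, 1.79-fold lower. Of its 8 probe sets, the 6 above background were all higher in MDS-L, by 0.23 to 0.69 on the log2 scale. In SKM-1 all 8 were lower, with differences of -1.16 to -0.34. IL6R, the chain that binds IL-6, read 7.28 with DAC and 6.85 with DMSO in MDS-L and 9.49 with DAC and 10.00 with DMSO in SKM-1. All 4 IL6R probe sets were higher in MDS-L, by 0.31 to 0.57, and all 4 were lower in SKM-1, at -0.77 to -0.37. Probe sets of a gene share the same RNA and are not replicates, and the difference between the lines was not tested.

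**Figure D3:**
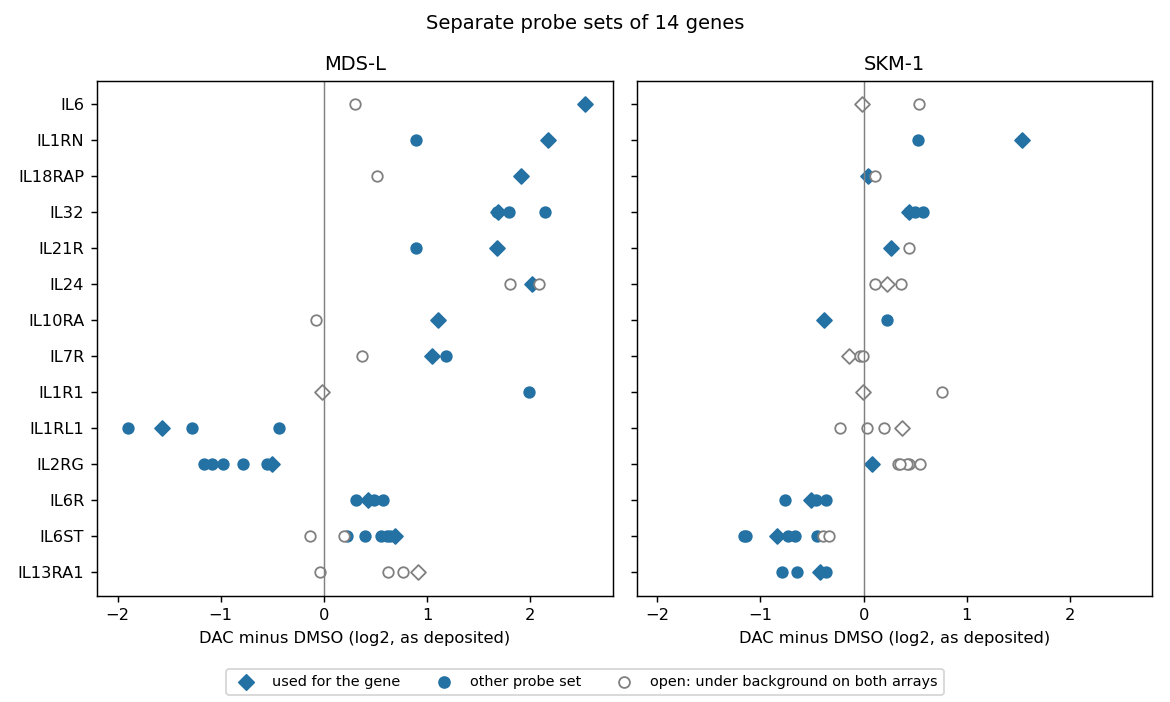
DAC minus DMSO difference (log2, as deposited) of each distinct probe set of 14 members, in MDS-L (left) and SKM-1 (right). Diamonds mark the probe set used for the gene and open symbols those under background on both arrays of the line; the 4 IL32 probe sets lie between 1.68 and 2.14 in MDS-L, and the IL6ST and IL6R probe sets lie below 0 in SKM-1.

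Between probe sets of a gene, the pooled SD of the DAC minus DMSO difference was 0.34 in MDS-L (22 members with several measured probe sets) and 0.29 in SKM-1 (20 members). Over all genes it was 0.28 and 0.29 for the same lines. This is a spread within an array pair, not between cultures.

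Most differences were small and positive. In MDS-L 38 of the 46 measured members lay above 0 (82.6%), against 53.7% of all measured genes, and their median difference was 0.41, against 0.04 for all. In SKM-1 30 of 42 lay above 0 (71.4%), against 54.8%, and the median was 0.21, against 0.05. Raising values to background turned the sign of 2 of these members in MDS-L (IL12A and IL13) and 1 in SKM-1 (IL36RN), all lower with DAC as deposited. As deposited, 36 of 46 lay above 0 in MDS-L (78.3%, against 52.5% of all) and 29 of 42 in SKM-1 (69.0%, against 53.7%). Signals under or near background were also shifted upward with DAC. Their median difference was 0.11 for the olfactory receptor probe sets and 0.18 for the 39 members under background in MDS-L, and 0.07 and 0.11 (43 members) in SKM-1. Among members above background on both arrays the median was 0.41 in MDS-L (38 members, against 0.02 for all such genes) and 0.16 in SKM-1 (32 members, against 0.05), and how far a shift of low signals entered these medians was not tested.

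By role, 4 of 16 measured ligands in MDS-L were at least 2-fold higher (25%), 3 of 27 receptors were higher (11.1%) and 1 lower (3.70%). Over all measured genes, 3.62% were higher and 3.18% lower. Of the 2 measured inhibitors, IL1RN was at least 2-fold higher and IL18BP, which binds and blocks IL-18, 1.56-fold (8.28 with DAC and 7.63 with DMSO). The IL-12 and IL-17 families, which serve T cell responses, held 0 of the genes at least 2-fold higher in MDS-L. With 6 and 4 measured members there, that count cannot be told apart from the 3.62% of all measured genes. The medians of these families were 0.20 and 0.27 in MDS-L, and their 6 and 8 measured members had medians of 0.11 and 0.33 in SKM-1. IL17RA, the receptor chain shared within the IL-17 family, read 9.47 with DAC and 8.96 with DMSO in MDS-L and 9.45 with DAC and 9.04 with DMSO in SKM-1, 1.42-fold and 1.33-fold higher. Its levels in the lines were close under either treatment.

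Across both lines, 0 of the 36 members measured in both were at least 2-fold higher in both, against 0.384% of all genes measured in both. By sign alone, 22 of 36 (61.1%) were above 0 in both lines, against 35.9% of all genes, and 12 (33.3%) had opposite signs, against 35.5%. The effect of DAC common to both lines was fitted with limma, taking the lines as blocks, which left 1 degree of freedom for the residuals. It called 0 of the 36 members at an adjusted p under 0.05, with 0% of all 11984 genes called. At an unadjusted p under 0.05 it called 7 of the 36 (19.4%, all higher with DAC), against 11.9% of all genes. Without the trend in the variance that order turned, with 3 of 36 (8.33%) against 10.9% of all genes. IL1RN led these with a common difference of 1.503 ± 0.348 on the log2 scale (SE, higher in both lines, limma adjusted p = 0.413, which was 0.215 to 0.452 for the lowest member under the other settings). The rest of the 7 were IL10, IL34 (a ligand of the CSF1 receptor), IL32, IL17D, IL21R and IL18RAP.

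**Figure D4:**
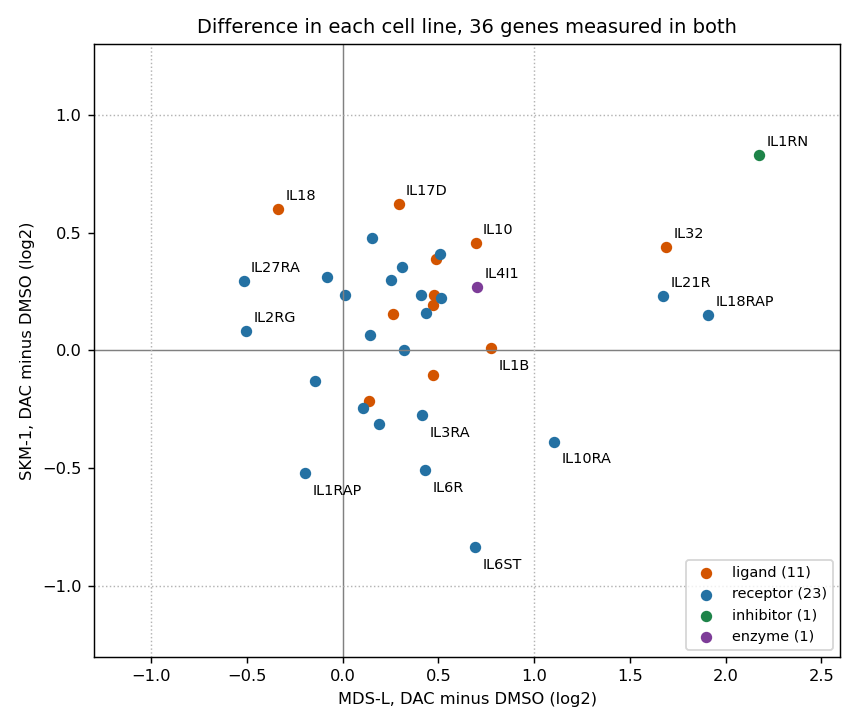
DAC minus DMSO difference (log2, values under background raised to it) in MDS-L (horizontal axis) and SKM-1 (vertical axis) for the 36 members measured in both lines. Each point is a gene, coloured by role, with dotted lines at 2-fold; no point lies beyond 2-fold on both axes, IL1RN comes nearest, and IL6ST lies right of 0 on the horizontal axis and under 0 on the vertical one.

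In SKM-1 3 of 42 members were at least 1.5-fold higher, against 9.65% of all measured genes. They were IL1RN, IL17D and IL18, named after their values were seen, as were IL1R1, IL1R2, IL2RG, IL6R, IL10, IL13RA1, IL18BP, IL18R1 and the others named outside the rule given with the methods. IL17D, a cytokine of the IL-17 family, read 5.93 with DAC and 5.31 with DMSO in SKM-1, 1.54-fold higher. IL18, the IL-1 family cytokine that CASP1 activates, read 8.31 with DAC and 7.71 with DMSO in SKM-1, 1.51-fold higher, and 7.16 with DAC and 7.49 with DMSO in MDS-L, 1.26-fold lower. IL6ST was the 1 member of 42 at least 1.5-fold lower in SKM-1, against 9.15% of all measured genes. IL13RA1, a receptor chain for IL-13 and IL-4, read 7.90 with DAC and 8.33 with DMSO there, and all 4 of its probe sets were lower, with log2 differences of -0.79 to -0.36.

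The lines also differed from each other in interleukin and receptor RNA on their DMSO arrays. With DMSO, 14 of the 44 members measured in at least 1 line were at least 2-fold higher in MDS-L than in SKM-1 (31.8%), against 12.4% of all measured genes, and 5 of 44 were at least 2-fold higher in SKM-1 (11.4%), against 12.1%. The genes higher in MDS-L included IL1B (43.9-fold), the shared chain IL2RG (28.1-fold), IL16 (17.9-fold), IL2RB, a chain of the IL-2 and IL-15 receptors (at least 15.6-fold), IL3RA (13.0-fold), IL18R1 (at least 10.2-fold) and IL1RL1 (at least 8.48-fold). Those higher in SKM-1 were IL13RA1 (at least 11.2-fold), IL6R (8.86-fold), IL17RB, the receptor chain for IL-25 (at least 6.19-fold), IL15RA (3.61-fold) and IL11RA (2.25-fold). IL6R read 6.85 in MDS-L and 10.00 in SKM-1 with DMSO, whereas IL6 was above background only in MDS-L. The lines differ in origin and in the IL-3 of their medium, and these cannot be told apart with 1 array each.

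Genes that share receptors or signal with interleukins, called partners here, were read in the same way. Of 40 listed partners, 34 had a probe set with a single symbol. In MDS-L the median difference of the 31 measured was 0.17, against 0.04 for all measured genes. There 2 of the 31 were at least 2-fold higher (6.45%, against 3.62%) and 0 lower (against 3.18%). These were SOCS3, a feedback inhibitor of IL6ST signaling, at 7.56 with DAC and 6.22 with DMSO (2.52-fold), and STAT4, which signals for IL-12, at 6.35 with DAC and 5.12 with DMSO (2.35-fold). STAT3, the main STAT of IL-6, read 11.15 with DAC and 10.19 with DMSO, 1.95-fold higher. At 1.5-fold, 6 of the 31 were higher, STAT3 among them, and 3 were lower, against 9.06% and 10.7% of all measured genes. The 3 lower were OSM (1.77-fold), CSF3R (1.58-fold) and STAT5B (1.51-fold). In SKM-1 the median of the 29 measured was 0.19, against 0.05 for all measured genes. There 1 of 29 was at least 2-fold higher (3.45%, against 2.71%) and 0 lower (against 1.43%). That gene was CASP1, the protease that matures IL-1 beta and IL-18, at 7.84 with DAC and 6.61 with DMSO (2.34-fold).

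Some markers of other blood cells were also higher with DAC in MDS-L. Of 6 T cell markers, 5 were above background in MDS-L with DAC and 3 with DMSO, and 2 were on each SKM-1 array. Their summed log2 signal over background was 7.55 in MDS-L with DAC and 0.75 with DMSO, against 0.59 in SKM-1 with DAC and 0.89 with DMSO. CD3D, part of the CD3 complex of T cells, read 8.91 with DAC and 3.98 with DMSO in MDS-L, whereas CD3G, another CD3 chain, was under background on all 4 arrays. Of 4 monocyte and macrophage markers, 2 were above background on each MDS-L array, with sums of 3.16 with DAC and 2.09 with DMSO, and 1 on each SKM-1 array, with sums of 0.91 with DAC and 0.97 with DMSO. CD14, a monocyte surface receptor, read 7.61 with DAC and 6.59 with DMSO in MDS-L, while CD163 and FCGR3A were under background on all 4 arrays. The mast cell protease CPA3 read 9.56 with DAC and 8.63 with DMSO in MDS-L, and the keratin KRT8 read 6.25 with DAC and 5.29 with DMSO. The progenitor marker CD34 read 8.13 with DAC and 8.97 with DMSO in MDS-L, 1.79-fold lower. KIT, ITGA2B and CD4 of the same list were lower by less. ANPEP was higher, at 12.33 with DAC and 11.95 with DMSO, as was MPO, at 5.48 with DAC and 5.04 with DMSO. The summed log2 signal over background of the 6 progenitor markers was 21.2 with DAC and 23.2 with DMSO. Background was 5.09 with DAC and 4.84 with DMSO, and the higher background by itself lowered the sum with DAC. The part of other blood cells in the differences of IL21R, IL18RAP, IL32, IL7R or IL1RN was not tested. In bulk RNA fewer cells of a type and less RNA per cell cannot be told apart.

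Promoter sequence was available for 69 of the 85 members from RefSeq (GRCh38.p14), as 300 bases from 250 before to 50 after 1 annotated start of each gene. Because DAC acts on methylated CG sites, CG dinucleotides were counted. The 8 higher members had a median of 4 CG (range 0 to 8), the 37 measured members that were not had a median of 10, the 24 members under background on all arrays had 4, and all 27305 promoters had 14. IL1RL1, the lower gene, had 1, whereas IL6R had 27 and IL6ST 36. No methylation was measured here, and these counts are a description.

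Letters of 4 motifs were searched on both strands. The letters GGG and TTTCC with 2 free bases between them, a form of the NF-kB site, were in 5 of 69 members (7.25%) and 1.92% of all promoters. The letters GAAA and GAAA with 2 free bases between them, the core of the interferon response element, were in 5 of 69 (7.25%) and 3.65% of all, and TGANTCA, the AP-1 site, was in 11 of 69 (15.9%) and 7.76% of all. TTCNNNGAA, the STAT site, was in 8 of 69 (11.6%) and 7.88% of all. It was in 0 of the 8 higher members, too few promoters to tell from those shares. Among those 8, IL6 and IL32 held the NF-kB letters, and IL24 and IL18RAP the interferon core. IL1A, IL1RN and IL10RA held the AP-1 letters, and IL21R had none of the 4 motifs. Of the 37 measured members that were not higher, 2 held the NF-kB letters, 1 the interferon core and 7 the AP-1 letters. IL1RL1, the lower gene, was among those with the AP-1 letters. The 8 promoters are few for these motifs too, and whether their counts differ from the other shares was not tested. The promoters of 3 pairs with shared letters are printed 5′ to 3′ to show how few CG sites they hold and where the letters fall. Capitals mark CG dinucleotides and motif letters, on either strand, and no motif overlapped another in these 6 promoters.
IL6, chr7:22726950-22727249, plus strand: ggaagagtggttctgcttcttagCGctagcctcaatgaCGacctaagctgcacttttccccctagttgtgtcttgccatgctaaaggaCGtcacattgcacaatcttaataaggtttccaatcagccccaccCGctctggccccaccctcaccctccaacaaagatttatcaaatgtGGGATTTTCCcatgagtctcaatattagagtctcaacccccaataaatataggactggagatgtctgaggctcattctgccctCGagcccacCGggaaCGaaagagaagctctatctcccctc
IL32, chr16:3065153-3065452, plus strand: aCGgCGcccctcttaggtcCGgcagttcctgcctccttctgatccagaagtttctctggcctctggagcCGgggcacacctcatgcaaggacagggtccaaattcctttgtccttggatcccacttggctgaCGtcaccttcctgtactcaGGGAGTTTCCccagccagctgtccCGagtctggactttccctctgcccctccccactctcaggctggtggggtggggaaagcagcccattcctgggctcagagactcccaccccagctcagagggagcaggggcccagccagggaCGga
IL1A, chr2:112784444-112784743, minus strand: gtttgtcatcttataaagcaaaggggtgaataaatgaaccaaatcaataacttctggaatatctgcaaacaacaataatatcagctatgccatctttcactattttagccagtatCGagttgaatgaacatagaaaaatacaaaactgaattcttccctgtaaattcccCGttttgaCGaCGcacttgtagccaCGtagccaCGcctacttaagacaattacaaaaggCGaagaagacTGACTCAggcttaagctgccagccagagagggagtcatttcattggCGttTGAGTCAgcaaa
IL1RN, chr2:113117721-113118020, plus strand: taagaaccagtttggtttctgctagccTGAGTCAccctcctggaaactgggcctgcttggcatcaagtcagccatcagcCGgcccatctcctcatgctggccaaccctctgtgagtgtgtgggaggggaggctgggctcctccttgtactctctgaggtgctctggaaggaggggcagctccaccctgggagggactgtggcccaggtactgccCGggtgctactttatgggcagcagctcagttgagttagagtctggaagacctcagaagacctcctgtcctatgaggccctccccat
IL24, chr1:206897193-206897492, plus strand: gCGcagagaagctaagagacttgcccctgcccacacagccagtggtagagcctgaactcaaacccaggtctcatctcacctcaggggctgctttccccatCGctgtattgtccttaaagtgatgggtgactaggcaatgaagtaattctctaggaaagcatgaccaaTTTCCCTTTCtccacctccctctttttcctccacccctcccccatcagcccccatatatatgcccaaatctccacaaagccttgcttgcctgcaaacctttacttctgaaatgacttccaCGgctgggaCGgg
IL18RAP, chr2:102418371-102418670, plus strand: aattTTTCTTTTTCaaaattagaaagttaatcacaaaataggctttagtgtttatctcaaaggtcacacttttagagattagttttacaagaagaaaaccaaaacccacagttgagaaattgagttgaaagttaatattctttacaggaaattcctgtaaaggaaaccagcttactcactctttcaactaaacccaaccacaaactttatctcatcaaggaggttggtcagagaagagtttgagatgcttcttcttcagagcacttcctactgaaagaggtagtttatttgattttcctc

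In IL6 the NF-kB letters began 73 bases before the start and in IL32 99 bases before it. IL1A held the AP-1 letters at both 12 bases before and 39 bases after its start, and IL1RN held them 223 bases before. The interferon core, read on the minus strand, began 83 bases before the start of IL24 and 246 bases before that of IL18RAP, whose promoter held 0 CG. A match in letters is no measured binding site, and binding was not measured in these cells.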

How the data were processed

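Per the labels and the study's methods, total RNA of MDS-L and SKM-1 cells, with DAC or DMSO, was hybridised to Affymetrix PrimeView arrays, 1 per condition. The authors deposited log2 signal per probe set. The methods name RMA and the submitters' processing notes name MAS5, so the exact summarisation is open; the arrays' sorted values differed by at most 0.18. Of 49395 probe sets, 44994 had 1 gene symbol, 1832 several and 2569 none listed here. Members and lists were chosen with earlier results of these data known. Each gene was read from its probe set with the highest mean. Named genes were members at least 2-fold different in either line, the 5 with the highest mean signal, IL3RA, IL6 and IL7R, and those at least 1.5-fold different in opposite directions. The common effect was tested with limma 3.58.1 in R 4.3.3 (lmFit, eBayes with trend, Benjamini-Hochberg over 11984 genes). The fit was checked on simulated data, in which changes were the same in both lines and larger than any member's. That check does not show the power to find differences of the size seen here. Alternatives were another fold, background, scaling or choice of probe set. The methods' own false discovery threshold of 0.15 called 0 members and 0 of all 11984 genes.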

Additional observations from a re-analysis of the deposited data

Results flagged for a closer look

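IL6ST differed in opposite directions between the cell lines: on the log2 scale, the DAC minus DMSO value of MDS-L was 0.69 and that of SKM-1 was -0.84. With 1 array per condition, the difference between the lines was not tested.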

How the results depend on the processing

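Of 57 recomputed counts and medians, 46 stayed within 1.5 times the count or 0.1 of the median, and 11 did not. With a 1.5-fold threshold, 14 of 46 members were higher in MDS-L (9.06% of all genes), 3 of 42 higher and 1 lower in SKM-1 (9.65% and 9.15% of all genes), and 1 higher in both. With background at the 99th percentile, 3 of 25 were higher in MDS-L (2.67% of all genes). Without raising values to background, IL1RN passed 2-fold in SKM-1 too, giving 1 of 42 in SKM-1 (2.94% of all genes) and 1 in both. With the median over probe sets, 5 of 37 were higher in MDS-L (2.65% of all genes). Without probe sets that can match several transcripts (suffix s or x), 0 of 43 were lower in MDS-L (3.54% of all genes). Counting any probe set, a choice made after seeing the data, 2 were lower in MDS-L (IL1RL1 and IL2RG) and 2 in SKM-1 (IL6ST and IL12RB2). No share over all genes is given for that choice, nor for the counts in both lines under these settings. Those counts cannot be read against one. Quantile normalization and centring on the median moved no count past 1.5 times. In MDS-L, IL1A, IL18RAP, IL21R and IL24 were no longer measured with the 99th percentile background, nor was IL24 with the median over probe sets. Among named genes still measured, 5 values dropped under 2-fold: IL10RA (0.51 with the 99th percentile background and 0.51 with the median over probe sets), IL18RAP (0.32 with that median), and IL1RL1 (-0.43) and IL1RN (0.89) without s and x probe sets. At an unadjusted p under 0.05, limma called 3 of 36 members without the trend (8.33%, against 10.9% of all genes) and 6 of 26 with the median over probe sets (23.1%, against 15.7%). The causes were not tested.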
